A study of Mus musculus with 2 samples.

Results

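The 28 genes described here make up the fast inhibitory transmission machinery of the neonatal cerebellum that was listed for this account, out of 32285 genes counted. They were chosen by name: 14 subunits of the GABA-A receptor, 4 subunits of the glycine receptor, the enzymes and vesicle transporter that make and load the transmitters, 3 transporters of the plasma membrane, both chloride cotransporters, the scaffold protein gephyrin and the enzyme that breaks GABA down. Single-nucleus RNA-seq was performed on mouse cerebellum at postnatal day 1 (P1) to compare its cell types with and without Tox3 in the neural lineage. There was 1 library from Cre-negative control littermates, whose genotype is given as Tox3f/f in the labels and as Tox3f/f or Tox3f/+ in the library name, and 1 from mice with a conditional knockout (cKO), genotype Nestin-cre;Tox3f/f. Each library was made from 12 pooled cerebella, so animals cannot be told apart, and both groups carry the floxed Tox3 allele. The Nestin-cre transgene is active in neural precursors and therefore in neurons, astrocytes and Bergmann glia alike, and not in granule cells alone.

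GABA and glycine open chloride channels that are built of several subunits arranged in a ring. In mature neurons chloride then flows in and the cell is inhibited, because the exporter KCC2 (Slc12a5) keeps chloride low. In immature neurons the importer NKCC1 (Slc12a2) keeps chloride high, and the same channels excite the cell. Cerebellar granule neurons change their receptor subunits as they mature, and the subunits encoded by Gabra6 and Gabrd belong to the mature form. Purkinje cells and the interneurons of the cortex release GABA, and interneurons also use glycine.

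After filtering, control held 4667 nuclei and 20493455 unique molecular identifiers (UMIs), and the cKO-labelled library held 6555 nuclei and 30169066 UMIs. Levels are given as counts per 1000000 UMIs (CPM), the UMIs of a gene per 1000000 UMIs of the summed nuclei. Each group being 1 library, differences between groups had no replicates behind them and were not tested. Every range in parentheses is an exact 95% interval for counting error alone, which leaves out how animals and libraries vary. A gene was compared where it had at least 50 UMIs over both libraries, and a CPM ratio of at least 1.5-fold in either direction was called. Nuclei were sorted into 10 classes with at least 20 nuclei per library, named with the ending "-like" from marker genes, and the 28 genes were kept out of the clustering and the marker lists. Of 25 clusters 20 were named, and the rest, 31.2% of nuclei in control and 19.6% in the cKO-labelled library, stayed unnamed, most of them in a pair of clusters of low depth with 21.7% and 10.7%. Of these, cluster 1 held 967 control nuclei and 84 of the cKO-labelled library, and cluster 5 held 47 and 616, so that each was mostly of 1 library. The libraries shared 9 barcodes. Cluster 3 also stayed unnamed, with 7.52% and 6.12% of nuclei. It carried granule neuron markers but was led by Mylk and Otx2. Granule neuron progenitor (GNP)-like nuclei numbered 511 in control and 115 in the cKO-labelled library. Tox3 UMIs did not check the label, since the CPM ratio of Tox3 was 1.14 (1.08 to 1.20). Atoh1, a transcription factor of granule neuron progenitors, had 42 UMIs in control and 3 in the cKO-labelled library. Sex-linked transcripts also differed: Xist was 1.22 times and the Y-linked gene Uty 0.646 times its control level, and Gabra3, Gabre, Gabrq and Glra2 lie on chromosome X. Of the 28 genes, 24 reached 50 UMIs.

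The class profile of each gene in control is described before the libraries are compared. Of the 28 genes, 12 had a class whose level lay above that of the next class without overlap of the intervals, and 19 had the same leading class in both libraries. Both counts depend on the number of UMIs and were not made over all genes, so they are not read as a trait of these genes. Droplets can hold RNA that leaked from other nuclei. Microglia-like nuclei, which neither release these transmitters nor form inhibitory synapses, are given as the level of free RNA, at a median of 2923 UMIs in 53 control nuclei and 2541 in 152 nuclei of the cKO-labelled library. There Gphn stood at 521 CPM and Slc12a2 at 197 in control, levels near those of other classes, so that for this pair the microglia-like level is not read as free RNA. The other genes stood between 0 and 28.9 CPM in microglia-like nuclei of control. The heat map of control levels shows that the transmitter genes were concentrated in few classes, whereas gephyrin and Glrb were spread over nearly all of them.

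**Figure D1:**
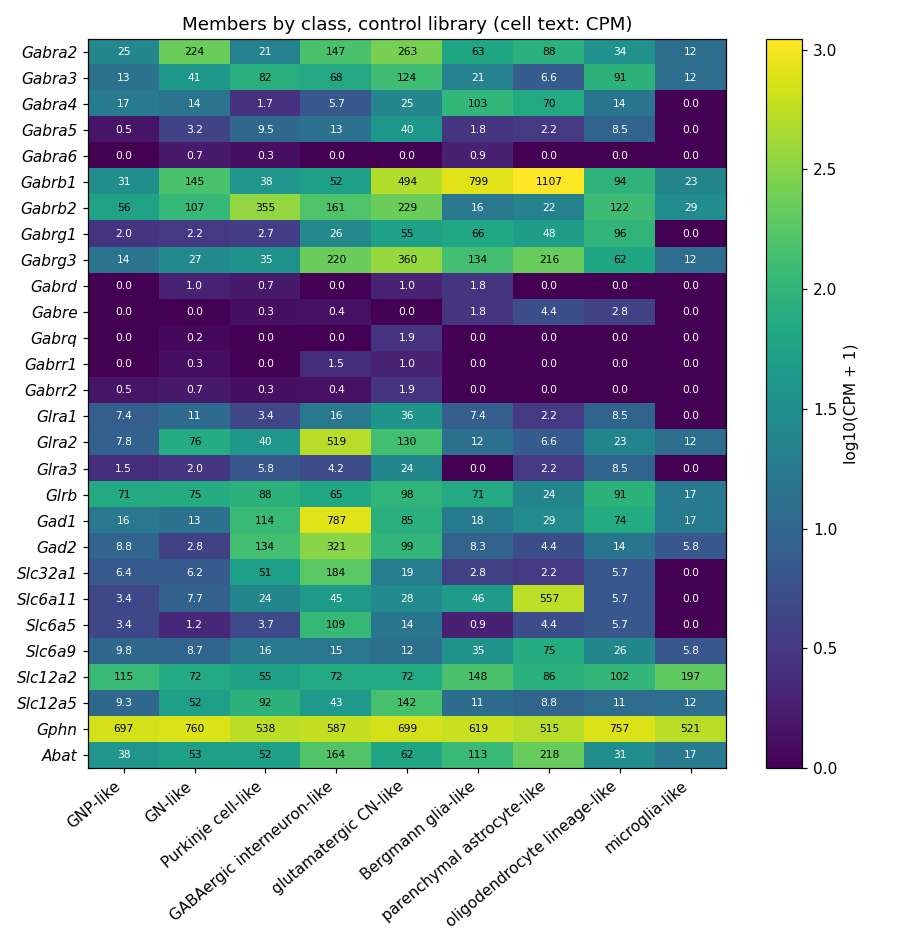
Each row is 1 of the 28 genes and each column 1 of the reported classes of the control library. The colour gives log10(CPM + 1) and the number in each cell the CPM. Gad1 stood at 787 CPM in GABAergic interneuron-like nuclei and Gphn between 515 and 760.1 CPM in all of the classes drawn.

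Transmitter synthesis and loading marked GABAergic interneuron-like nuclei. Gad1, which encodes the enzyme GAD67 that makes GABA from glutamate, stood at 787 CPM (753 to 821) in control and 745 (722 to 768) in the cKO-labelled library. The level in the next class, Purkinje cell-like nuclei, was 114 CPM (102 to 127) in control and 103 in the cKO-labelled library. Microglia-like nuclei had 17.4 and 25.3 CPM, on 3 and 11 UMIs. Gad2, which encodes the synaptic form GAD65, stood at 321 and 337 CPM in interneuron-like nuclei, at 134 and 143 CPM in Purkinje cell-like nuclei, and at 5.79 and 16.1 CPM in microglia-like nuclei. Slc32a1, whose product VIAAT loads both GABA and glycine into vesicles, stood at 184 CPM (168 to 201) in interneuron-like nuclei of control and at 220 in the cKO-labelled library, a ratio of 1.19 (1.07 to 1.33). Purkinje cell-like nuclei had 50.6 and 50.4 CPM of it. In control microglia-like nuclei it had 0 UMIs, which allows up to 21.4 CPM by the exact interval.

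Slc6a5 encodes GlyT2, the transporter with which glycinergic terminals take glycine back up. It stood at 109 CPM (96.6 to 122) in interneuron-like nuclei of control and at 124 in the cKO-labelled library, and in the next class, the glutamatergic cerebellar nuclear neuron (CN)-like nuclei, at 14.3 and 5.85 CPM. Within the interneuron class it was not even. Cluster 11, led by Pax2 and Lhx5, had 185 CPM (147 to 229) in control and cluster 18, led by Scube1 and Gldc, 167 (129 to 212), whereas cluster 8, led by Tll2 and C1ql3, had 56.8 (43.5 to 73.0). The cKO-labelled library had 206, 211 and 76.4 CPM in the same clusters. Gad2 ran the other way between clusters: in control it stood at 434 CPM (396 to 475) in cluster 8 and at 111 (82.8 to 147) in cluster 11. Nuclei with a Slc6a5 UMI mostly had a UMI of Gad1 or Gad2 too. In cluster 18 of control, 41 of 83 nuclei had a Slc6a5 UMI, and 40 of these 41 also had a Gad1 or Gad2 UMI. In the cKO-labelled library these numbers were 103 of 195 nuclei and 100 of 103. Gad UMIs were as common in the other nuclei, since 82 of all 83 and 190 of all 195 nuclei of that cluster had one. In cluster 11 of control, where nuclei were shallower, 45 of 49 nuclei with a Slc6a5 UMI and 98 of all 122 nuclei had a Gad1 or Gad2 UMI.

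To set the genes that led in interneuron-like nuclei beside their DNA, upstream windows were read from RefSeq for GRCm38.p6, which held at least 1 window for 24 of the 28 genes. The E-box, the motif that basic helix-loop-helix factors such as Atoh1 recognise, was searched as CANNTG, which reads the same on both strands. Each of the 250-base windows of Gad1, Gad2, Slc32a1 and Slc6a5 held at least 1 E-box, as did 66.2% of all 32851 windows of this length, so its presence is no mark of these genes. CACCTG or its reverse CAGGTG was in 17.2% of all windows and in those of Gad1 and Slc32a1. A match is a description of letters and not a binding site. The stretches outside annotated exons are shown for Gad1, plus strand, chr2:70561879-70562041, and Slc6a5, plus strand, chr7:49910049-49910145, since these genes define the GABAergic and the glycinergic phenotype. The letters are in lower case with E-boxes in capitals, 5′ to 3′.
Gad1: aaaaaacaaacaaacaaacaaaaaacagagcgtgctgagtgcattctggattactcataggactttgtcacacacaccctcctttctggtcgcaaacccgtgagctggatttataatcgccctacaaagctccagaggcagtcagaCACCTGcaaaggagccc
Slc6a5: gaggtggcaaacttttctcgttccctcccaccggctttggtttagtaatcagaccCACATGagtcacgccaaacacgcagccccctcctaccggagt

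Slc6a11 and Slc6a9 were highest in astrocyte-like nuclei, whereas the levels of Abat in astrocyte-like and interneuron-like nuclei had overlapping intervals. Slc6a11, which encodes the GABA transporter GAT3, stood at 557 CPM (490 to 630) in parenchymal astrocyte-like nuclei of control and at 707 in the cKO-labelled library, a ratio of 1.27 (1.10 to 1.47). The next class in control, Bergmann glia-like nuclei, had 46.2 CPM. Slc6a9, which encodes the glial glycine transporter GlyT1, stood at 74.8 CPM (51.8 to 105) in astrocyte-like nuclei and at 35.1 (24.8 to 48.2) in Bergmann glia-like nuclei of control, and at 82.5 and 40.9 CPM in the cKO-labelled library. Abat, which encodes GABA transaminase, stood at 218 CPM (177 to 265) in astrocyte-like nuclei and at 164 (149 to 180) in interneuron-like nuclei of control. In astrocyte-like nuclei it was 150 CPM in the cKO-labelled library, a ratio of 0.689 (0.533 to 0.894), so that interneuron-like nuclei led there with 151 CPM.

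**Figure D2:**
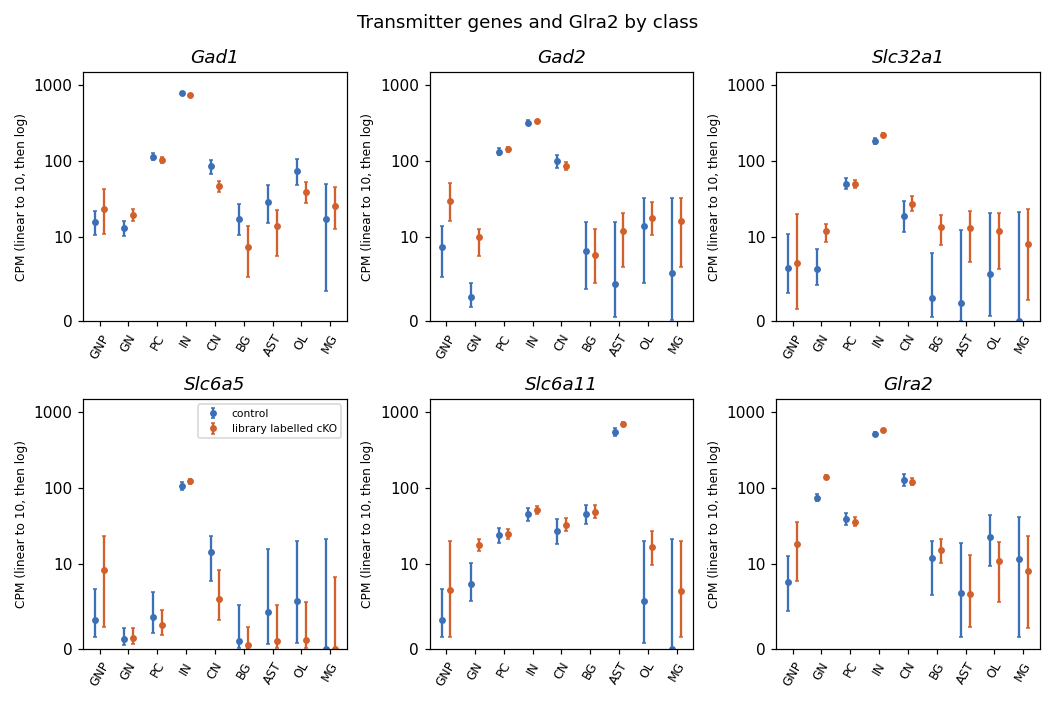
Levels in CPM of 6 genes in the reported classes (GNP; GN, granule neuron; PC, Purkinje cell; IN, GABAergic interneuron; CN; BG, Bergmann glia; AST, parenchymal astrocyte; OL, oligodendrocyte lineage; MG, microglia), with control in blue and the cKO-labelled library in orange. Bars are exact 95% counting intervals, and the axis is linear to 10 CPM and logarithmic above. Glra2 in GN-like nuclei stood at 75.8 CPM in control and 141 CPM in the cKO-labelled library.

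Receptor subunits differed by class. Among the alpha subunits, which hold part of the GABA binding site, Gabra2 was highest in CN-like nuclei with 263 CPM (233 to 296) and in GN-like nuclei with 224 (212 to 237) in control, ranges that overlap. It was low in Purkinje cell-like nuclei with 20.7 CPM. Gabra3 stood at 124 CPM (104 to 148) in CN-like, 90.7 (62.0 to 128) in oligodendrocyte lineage-like and 82.2 (72.2 to 93.3) in Purkinje cell-like nuclei. Gabra5, whose subunit is typical of receptors outside synapses, stood at 40.2 CPM (28.9 to 54.3) in CN-like nuclei against 12.5 (8.61 to 17.6) in interneuron-like nuclei.

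Some subunits were glial at this age. Gabra4 stood at 103 CPM (85.2 to 124) in Bergmann glia-like and 70.4 (48.2 to 99.4) in astrocyte-like nuclei, and at 13.9 (11.1 to 17.2) in GN-like nuclei. Gabrb1 stood at 1107 CPM (1013 to 1208) in astrocyte-like and 799 (747 to 854) in Bergmann glia-like nuclei, and at 494 (453 to 539) in CN-like nuclei. In the cKO-labelled library Bergmann glia-like nuclei led with 1024 CPM and astrocyte-like nuclei had 863. Gabrg1 stood at 96.4 CPM (66.7 to 135) in oligodendrocyte lineage-like and 66.5 (52.0 to 83.7) in Bergmann glia-like nuclei.

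Other subunits led in neurons. Gabrb2 stood at 355 CPM (334 to 377) in Purkinje cell-like nuclei of control and at 401 in the cKO-labelled library, above CN-like nuclei with 229 (200 to 259). Gabrg3 stood at 360.5 CPM (325 to 399) in CN-like, 220 (202 to 238) in interneuron-like and 27.0 (23.0 to 31.5) in GN-like nuclei, and astrocyte-like nuclei had 216 (175 to 263). In the interneuron class Gabrg3 ran from 385 CPM in cluster 8 to 11.1 in cluster 11. Gabrb2 was higher in cluster 10, led by Nxph1 and Htr7, with 326 CPM (286 to 371), than in cluster 8 with 85.7 (69.1 to 105).

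Gabra6 and Gabrd, the subunits of mature granule neurons, and the epsilon, rho and theta subunits had few UMIs at P1. Gabra6 had 14 UMIs in control and 47 in the cKO-labelled library over all nuclei. Gabrd, which encodes the delta subunit, had 13 and 28, Gabre 7 and 11, and the rho subunits Gabrr1 8 and 4 and Gabrr2 15 and 33. Gabrq, which encodes the theta subunit, had 7 UMIs in control and 49 in the cKO-labelled library, of which 2 and 35 lay in CN-like nuclei, nearly all in cluster 15, led by Meis2 and Cpne4. No call is given for Gabrd, Gabre, Gabrr1 and Gabrr2, which stayed under 50 UMIs.

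Glycine receptor genes followed their own pattern. Glra2, whose alpha 2 subunit is the fetal form, stood at 519 CPM (492 to 547) in interneuron-like nuclei of control, and at 130 (109 to 154) in CN-like nuclei. Glra1, the adult form, stood at 36.3 CPM (25.7 to 49.9) in CN-like nuclei. Glra3 stood at 23.9 CPM (15.5 to 35.3) in CN-like nuclei of control and at 42.003 in the cKO-labelled library. Glrb, the beta subunit that ties the receptor to gephyrin, ran from 65.2 to 97.5 CPM in the reported classes of neurons and neuronal progenitors of control, was 71.1 in Bergmann glia-like nuclei, 90.7 in oligodendrocyte lineage-like nuclei and 24.2 in astrocyte-like nuclei. Gphn, which encodes gephyrin, ran from 515 to 760.1 CPM over the reported classes.

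Within the granule lineage of control, the receptor genes were unequally spread between progenitors and neurons. Gabra2 stood at 25.02 CPM in GNP-like and 224 in GN-like nuclei, 8.97 times higher (6.78 to 12.1). Glra2 was 9.66 times (5.89 to 17.1), Slc12a5 5.53 times (3.48 to 9.32) and Gabrb1 4.70 times (3.64 to 6.17) higher in GN-like nuclei. Slc12a2 was lower in them, with 71.8 against 115 CPM and a ratio of 0.623 (0.530 to 0.734). Glrb was at 71.1 and 74.7 CPM, a ratio of 1.05 (0.869 to 1.28), and Gphn had a ratio of 1.09 (1.03 to 1.16). In the cKO-labelled library the same ratios were 11.3 for Gabra2, 7.59 for Glra2, 6.98 for Slc12a5, 4.49 for Gabrb1 and 0.576 for Slc12a2, with only 115 GNP-like nuclei behind them.

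The chloride cotransporters were read as the share of Slc12a5 in the UMIs of Slc12a2 and Slc12a5 together. This is a share of transcripts of genes that differ in length, and it says nothing of chloride itself. In control it was 66.5% (59.9 to 72.7) in CN-like, 62.7% (58.0 to 67.3) in Purkinje cell-like, 41.8% (38.2 to 45.4) in GN-like and 37.4% (31.9 to 43.1) in interneuron-like nuclei. It was 7.48% (4.56 to 11.4) in GNP-like, 6.98% in Bergmann glia-like and 5.56% (0.680 to 18.7) in microglia-like nuclei. Since Slc12a2 in microglia-like nuclei is not read as free RNA, their share is not a background level. CN-like nuclei had the highest Slc12a5 level with 142 CPM (121 to 167).

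The share also differed within classes. Among GN-like nuclei of control it was 53.6% (49.3 to 57.9) in cluster 0, led by Svep1, Fgf5 and Grm4, 10.6% (5.75 to 17.4) in cluster 4, led by Cadps2 and Reln, while cluster 7, led by Cntn2 and Vipr1, had 6 UMIs of Slc12a5 and 69 of Slc12a2 (2.99 to 16.6). Among interneuron-like nuclei of control it was 41.5% in cluster 8 and 12.5% (4.19 to 26.8) in the Pax2-led cluster 11. In the cKO-labelled library the share was 43.9% (40.7 to 47.1) in GN-like and 53.2% (49.4 to 56.9) in cluster 0, and both intervals overlapped those of control. Cluster 4 had 17.9% (12.5 to 24.5) and cluster 11 had 17.0% (8.07 to 29.8) there. The share in Purkinje cell-like nuclei was 60.4% (57.2 to 63.5) and in CN-like nuclei 66.7% (62.8 to 70.5). In interneuron-like nuclei it was 44.2% (40.2 to 48.2), with intervals that overlap those of control.

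**Figure D3:**
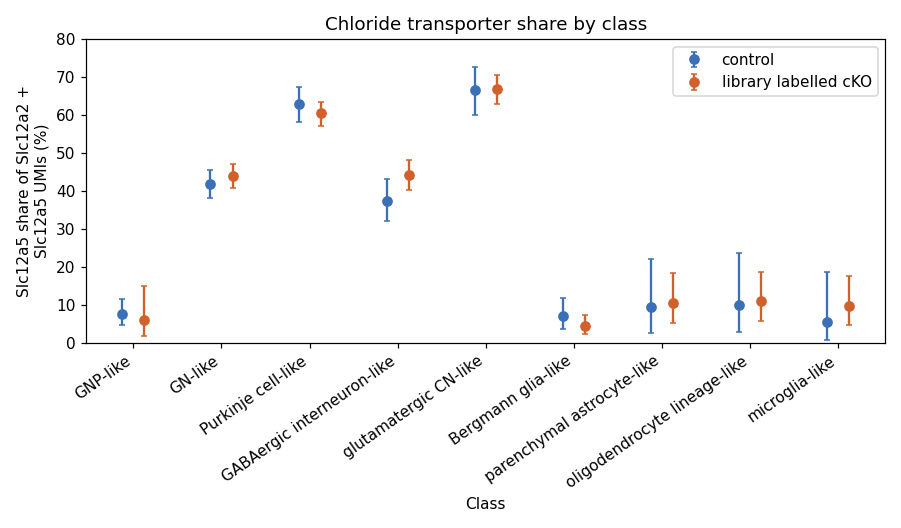
The vertical axis is the share of Slc12a5 in the summed UMIs of Slc12a2 and Slc12a5 in percent, for the reported classes, with control in blue and the cKO-labelled library in orange and exact 95% intervals as bars. CN-like nuclei sat at 66.5% and 66.7%, GN-like nuclei at 41.8% and 43.9%, and GNP-like nuclei at 7.48% and 6.06%.

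The libraries were then compared over all kept nuclei. Of the 24 genes compared, 7 were called higher in the cKO-labelled library and 0 lower. Over all 17602 genes with at least 50 UMIs, 5.26% were called higher and 5.81% lower. The genes called were Gabrq with a ratio of 4.76 (2.14 to 12.4), Gabra6 with 2.28 (1.23 to 4.49), Slc6a11 with 1.75 (1.60 to 1.92), Gabra5 with 1.66 (1.37 to 2.02), Gabrg3 with 1.65 (1.56 to 1.74), Glra3 with 1.59 (1.26 to 2.02) and Slc32a1 with 1.55 (1.43 to 1.69). Gabrq, on 7 and 49 UMIs, and Gabra6 reached 50 UMIs mainly through the cKO-labelled library, so the minimum itself favoured calling them higher. Gabrr1, on 8 and 4 UMIs, was not compared. With at least 200 UMIs 5 genes were called, all higher, without Gabrq and Gabra6. Those 2 were the only calls at a fold of 2. The median log2 ratio was 0.43 over the 24 genes and -0.02 over all genes. Receptor subunits had a median of 0.51 over 14 genes and the other genes one of 0.32 over 10.

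This difference between whole libraries went with a different make-up of the nuclei. Interneuron-like nuclei were 9.96% of control and 16.9% of the cKO-labelled library, Purkinje cell-like nuclei 6.26% and 11.0%, CN-like nuclei 2.34% and 5.29% and astrocyte-like nuclei 2.19% and 4.65%, while GNP-like nuclei were 10.9% and 1.75%. When the 10 classes were given the same share of UMIs in both libraries, 22 of the 28 genes were compared, and 0 were called in either direction. Over all genes 2.24% were then called higher and 3.11% lower. The median log2 ratio of the 22 genes was 0.11 and that of all genes -0.01. Slc6a11 stood at a ratio of 1.27, Slc32a1 at 1.22, Gabrg3 at 1.21 and Gad1 at 0.935 at equal mix. Gabrq and Gabra6 had too few UMIs in the named classes to enter. Their ratios at equal mix were 6.57 and 3.43, farther from 1 than over all kept nuclei, so the count of 0 does not cover them.

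**Figure D4:**
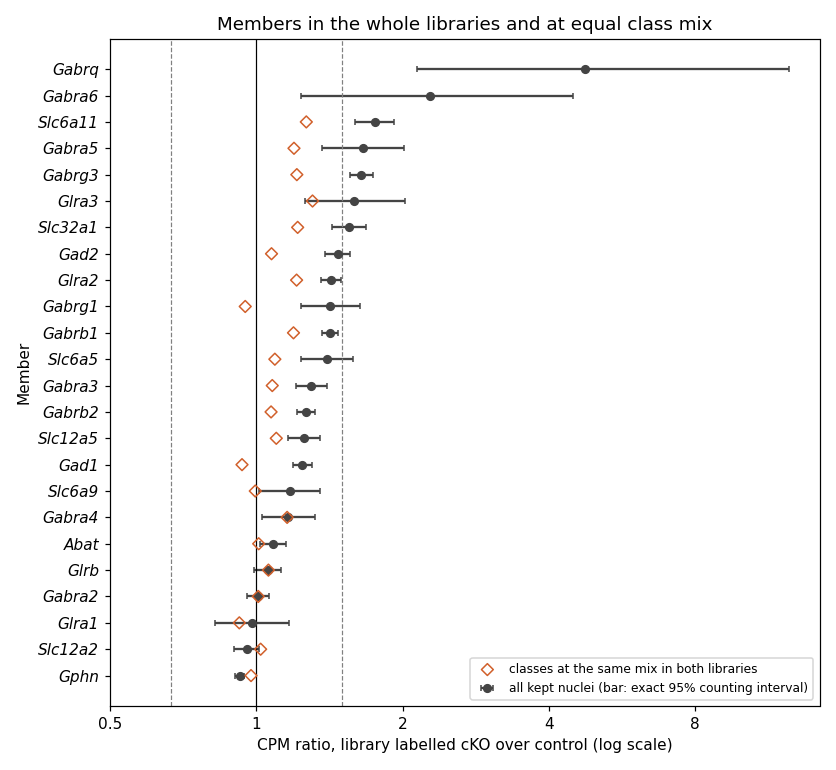
Horizontal axis: CPM ratio of the cKO-labelled library over control on a log scale, for the 24 genes with at least 50 UMIs. Dots with bars give all kept nuclei and exact 95% counting intervals, open diamonds the ratio at equal class mix (22 genes), and dashed lines 1.5-fold. Slc6a11 moved from 1.75 to 1.27 and Slc32a1 from 1.55 to 1.22.

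The partner genes of the pathway, a list of 56 genes in 3 groups, were read in the same way. Of the 54 with at least 50 UMIs over the whole libraries, 0 were called higher and 4 lower, where 5.26% and 5.81% of all genes were called, and their median log2 ratio was 0.06. The count was 3 with nuclei under 1000 genes left out and 2 with the low-depth clusters left out. Mdga1, whose product blocks the binding of neuroligins, was lowest with a ratio of 0.480 (0.451 to 0.511). Shmt1 and Shmt2, which encode the enzymes that interconvert serine and glycine, had 0.590 (0.461 to 0.755) and 0.622 (0.491 to 0.787). By group, 1 of 20 receptor partners, 2 of 18 genes of GABA and glycine handling and 1 of 16 chloride regulators were called lower, and 0 of each higher. These are values of whole libraries, and none at equal class mix are given for partner genes. The part of the different make-up of the nuclei in them was not tested.

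In GN-like nuclei, of which there were 1174 in control and 1500 in the cKO-labelled library, a set of receptor genes was higher in the cKO-labelled library. Of 19 genes compared, 7 were called higher and 0 lower, against 3.21% and 4.05% of all 12461 genes compared there. The 7 include Gad2, Slc6a11 and Slc32a1, which are not receptor genes, and Gabra5, all at low levels that are described further on. The median log2 ratio was 0.33, and -0.01 over all genes. Of 45 partner genes compared, 0 were called higher and 1 lower.

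Gabrb1 stood at 145 CPM (136 to 155) in control and 250 (238 to 262) in the cKO-labelled library, a ratio of 1.72 (1.58 to 1.87). Glra2 stood at 75.8 CPM (69.0 to 83.2) and 141 (132 to 150), a ratio of 1.86 (1.66 to 2.08). Gabra4 stood at 13.9 CPM (11.1 to 17.2) and 26.3 (22.5 to 30.6), a ratio of 1.89 (1.45 to 2.49). None of these ranges overlap between the libraries. The genes were picked by their ratio in these same nuclei, so this is no separate support. How many of all genes have such ranges was not counted. Other subunits did not share the difference: Gabra2 had a ratio of 1.05 (0.980 to 1.14), Glrb 1.07 (0.943 to 1.22), Gabra3 1.08 (0.910 to 1.29) and Gphn 1.02 (0.979 to 1.06). Gabrb2 with 1.19 (1.07 to 1.32) and Gabrg3 with 1.48 (1.21 to 1.81) lay between.

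The difference was then split by cluster of GN-like nuclei. These clusters are parts of the nuclei in which the genes were picked. Their ratios show where the difference lay and are no separate support. Gabrb1 had a ratio of 1.52 (1.39 to 1.66) in cluster 0, 2.60 (1.98 to 3.45) in cluster 4 and 1.95 (0.922 to 4.26) in cluster 7, where there were 13 and 20 UMIs. Glra2 had 1.71 (1.51 to 1.93), 2.05 (1.40 to 3.05) and 1.90 (0.714 to 5.36). In the unnamed cluster 3 Gabrb1 stood at 355 and 532 CPM, a ratio of 1.498 (1.35 to 1.67), and Glra2 at 105 and 173, a ratio of 1.65 (1.36 to 2.01). For both genes every one of these clusters lay above 1, and in cluster 7 the interval held 1. Gabra4 had 1.52 (1.14 to 2.04) in cluster 0, 7.66 (2.71 to 29.9) in cluster 4 on 4 and 31 UMIs, and 1.45 (0.997 to 2.12) in cluster 3. With the 3 clusters at the same share of UMIs in both libraries, GN-like nuclei had ratios of 1.61 for Gabrb1, 1.74 for Glra2 and 1.79 for Gabra4.

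**Figure D5:**
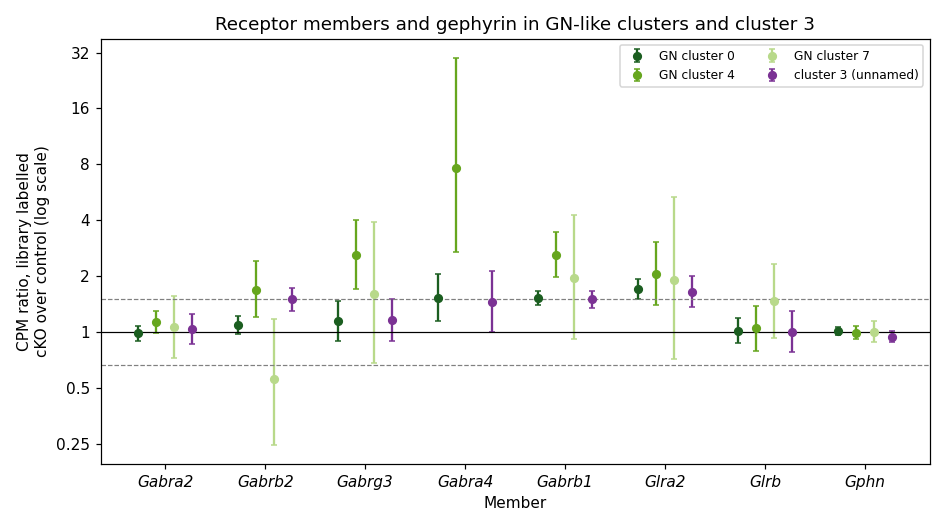
Vertical axis: CPM ratio of the cKO-labelled library over control on a log scale in each of the 3 clusters of GN-like nuclei (greens) and in the unnamed cluster 3 (purple), with exact 95% counting intervals, for 8 genes; a point is drawn where a cluster had at least 20 UMIs of the gene. Gabrb1 and Glra2 lay above 1 in all 4 clusters, whereas Gphn ran from 0.946 to 1.02.

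The difference was also read per nucleus at equal depth. With each nucleus thinned to 1000 UMIs, 11.0% (9.23 to 12.9) of control GN-like nuclei and 18.4% (16.4 to 20.4) of those of the cKO-labelled library had a Gabrb1 UMI, and 7 and 2 shallower nuclei were left out. Without thinning 33.0% and 46.7% had one, with medians of 4668.5 and 3994 UMIs per nucleus. For Glra2 the thinned shares were 6.43% (5.09 to 7.99) and 11.0% (9.47 to 12.7), and the unthinned ones 22.4% and 32.6%. In microglia-like nuclei, 1 of 52 control nuclei and 0 of 152 of the cKO-labelled library had a thinned Gabrb1 UMI, where 3 counts would be a share of 1.97%. By level, microglia-like nuclei had 23.2 and 20.7 CPM of Gabrb1 on 4 and 9 UMIs, 11.6 and 9.19 CPM of Glra2 on 2 and 4 UMIs, and 0 and 2 UMIs of Gabra4. Both libraries' GN-like levels of Gabrb1 and Glra2 lay above the upper bounds of these microglia-like levels, which were 59.3 and 39.3 CPM for Gabrb1 and 41.8 and 23.5 CPM for Glra2. For Gabra4 the 0 UMIs in control microglia-like nuclei allow up to 21.4 CPM. Its control GN-like level of 13.9 CPM lay below that bound, so the check does not tell this level from free RNA.

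Marker genes of other classes also differed in GN-like nuclei. The 8 GN markers summed to 1773 CPM in control and 1744 in the cKO-labelled library, a ratio of 0.984, and the 8 GNP markers to 245 and 183, a ratio of 0.748. The 8 Bergmann glia markers had a ratio of 1.32 (1.24 to 1.40), the 8 astrocyte markers 1.22 (1.09 to 1.36), the 10 Purkinje cell markers 1.37 (1.30 to 1.43) and the 8 interneuron markers 1.23 (1.11 to 1.36). Of these lists 6 of 8, 5 of 8, 8 of 10 and 3 of 8 genes were higher, and 1 astrocyte marker was at 0 in both libraries. In microglia-like nuclei the Purkinje cell list had a ratio of 1.62 (1.19 to 2.23) and the Bergmann glia list 1.38 (1.04 to 1.85), while the interneuron list had 0.813 (0.472 to 1.44). The astrocyte list went the other way there, with 0.424 (0.196 to 0.920) on 15 and 16 UMIs. Gabrb1 leads in astroglia and Glra2 in interneurons, and the part of such RNA in their difference was not tested. Nor was the part of GN maturity, although cluster 0 was 51.2% of control GN-like nuclei and 59.7% of those of the cKO-labelled library.

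The other 4 genes called in GN-like nuclei stood at low levels. Gad2 had 2.85 CPM (1.66 to 4.56) in control and 10.1 in the cKO-labelled library, a ratio of 3.54 (2.05 to 6.44), on 17 and 65 UMIs. Slc6a11 stood at 7.70 and 18.1 CPM, Slc32a1 at 6.19 and 11.9, and Gabra5 at 3.18 and 5.11, where the interval of the ratio held 1 (0.887 to 2.99). For Gad2, Slc6a11 and Slc32a1 microglia-like nuclei of the cKO-labelled library had 16.1 (6.47 to 33.1), 6.89 (1.42 to 20.1) and 9.19 CPM (2.50 to 23.5). The GN-like levels of all 3 genes in the cKO-labelled library lay within these intervals of free RNA and are not read as expression. Gabra6 had 4 UMIs in control GN-like nuclei and 22 in the cKO-labelled library, or 0.670 and 3.41 CPM, a ratio of 5.09 (1.73 to 20.3), and was under the 50 UMIs needed for a call.

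The granule lineage as a whole joined GN-like with GNP-like nuclei. There 9 of 19 genes were called higher and 0 lower, against 3.97% and 11.5% of all 13346 genes compared. The lineage held 511 GNP-like nuclei in control and 115 in the cKO-labelled library, so that its values mix that difference in make-up with the levels of each class. In GNP-like nuclei alone Gabrb1 stood at 30.9 and 55.6 CPM, a ratio of 1.80 (1.08 to 2.92) on 63 and 24 UMIs.

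Gabra4 and Gabrb1 lie head to head on chromosome 5, Gabra4 on the minus strand from 71569749 to 71658308 and Gabrb1 on the plus strand from 71658113 to 72149037 (GRCm38), and they overlap by 196 bases at their start. Reads of the 3′ kit keep their strand. Glra2 lies on chromosome X, minus strand, from 165129017 to 165327393. The upstream windows of these genes are shown because they were higher together in GN-like nuclei. The 250-base windows of Gabra4, Gabrb1 and Glra2 held 0 E-boxes, where 66.2% of all windows held at least 1, which says only that the letters CANNTG are not in these windows. The stretches outside annotated exons are, 5′ to 3′, Gabra4 at chr5:71658364-71658558 on the minus strand, Gabrb1 at its downstream start at chr5:71699825-71699931 on the plus strand, and Glra2 at chrX:165327394-165327643 on the minus strand.
Gabra4: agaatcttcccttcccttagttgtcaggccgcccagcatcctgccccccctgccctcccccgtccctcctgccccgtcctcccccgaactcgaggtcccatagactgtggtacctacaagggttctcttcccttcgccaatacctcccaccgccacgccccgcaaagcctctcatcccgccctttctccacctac
Gabrb1: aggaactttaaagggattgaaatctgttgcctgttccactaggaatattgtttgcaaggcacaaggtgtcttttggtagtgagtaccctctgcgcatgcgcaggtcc
Glra2: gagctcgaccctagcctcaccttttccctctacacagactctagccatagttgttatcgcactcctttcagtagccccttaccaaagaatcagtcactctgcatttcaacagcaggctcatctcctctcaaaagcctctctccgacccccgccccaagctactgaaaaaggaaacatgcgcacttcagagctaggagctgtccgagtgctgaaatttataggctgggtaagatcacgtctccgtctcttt

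In Purkinje cell-like nuclei, 292 in control and 719 in the cKO-labelled library, 0 of 17 genes were called higher and 2 lower, against 2.34% and 4.46% of all 11832 genes compared. Gabra2 stood at 20.7 CPM (15.9 to 26.6) in control and 11.0 in the cKO-labelled library, a ratio of 0.530 (0.368 to 0.763), and Gabrb1 at 38.1 (31.3 to 45.8) and 23.3, a ratio of 0.612 (0.474 to 0.792). Both were lower in cluster 6, led by Slc1a6 and Bcl11a, with 0.592 and 0.686, and in cluster 9, led by Ndnf and Ebf2, with 0.455 and 0.521. Both genes are low in these nuclei and high in others. The 8 GN markers had 216 CPM in control Purkinje cell-like nuclei and 117 in those of the cKO-labelled library, a ratio of 0.543 (0.487 to 0.605), with 0 of 8 higher, and their part in the result was not tested. Both calls ended with no doublet removed, where Gabra2 had 0.743 and Gabrb1 0.957, and with the 28 genes kept in the clustering, where they had 0.759 and 0.706. With nuclei classed by their own markers Gabra2 had 0.600 and Gabrb1 0.730. The genes that Purkinje cell-like nuclei carry at higher levels had ratios nearer 1: Gabrb2 had 1.13 (1.05 to 1.22), Gad2 1.07 (0.945 to 1.20), Gad1 0.905 (0.792 to 1.04) and Slc32a1 0.996 (0.816 to 1.22).

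In GABAergic interneuron-like nuclei, 465 in control and 1111 in the cKO-labelled library, 0 of 21 genes were called, against 2.78% higher and 2.54% lower of all 11489 genes compared. The median log2 ratio was 0.08, and -0.001 over all genes. Glra2 had a ratio of 1.13 (1.06 to 1.21), Gabrg3 1.22 (1.11 to 1.34), Gad1 0.947 (0.898 to 0.999) and Slc6a5 1.14 (0.992 to 1.31). Within the class, Gabrg3 in cluster 10 stood at 151 CPM (124 to 182) in control and 236 (213 to 261) in the cKO-labelled library, a ratio of 1.56 (1.26 to 1.95), and Slc32a1 there had 1.46 (1.15 to 1.87).

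In CN-like nuclei, 109 in control and 347 in the cKO-labelled library, the ratio of Glra3 was 1.76 (1.14 to 2.82) on 25 and 122 UMIs. Gad1, most of which stands in interneurons, had 85.1 CPM (68.3 to 105) and 46.8, a ratio of 0.550 (0.418 to 0.727), on 89 and 136 UMIs, and was lower in cluster 15 and in cluster 22, led by Tfap2d and Lhx9. The clusters differed in other genes. Gabra2 had a ratio of 0.983 (0.850 to 1.14) in cluster 15 and 2.17 (1.37 to 3.56) in cluster 22, and Gabrb1 1.03 (0.926 to 1.14) and 2.60 (1.68 to 4.19). Cluster 22 held 33 control nuclei and 87 of the cKO-labelled library, and clusters were looked at after the values of the class were known.

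For each of the remaining genes the class with the ratio farthest from 1, among reported classes with at least 50 UMIs of the gene, is given here. In GNP-like nuclei Gabra4 had a ratio of 2.36 (1.24 to 4.35) on 34 and 17 UMIs. In astrocyte-like nuclei Gabrg1 had 1.91 (1.20 to 3.19), while in Bergmann glia-like nuclei it had 0.573 (0.413 to 0.798). In oligodendrocyte lineage-like nuclei Glrb had 1.44 (0.971 to 2.19) and Abat 1.51 (0.773 to 3.23), and both intervals held 1. In the same nuclei Gabrb2 had 0.618 (0.419 to 0.921) on 43 and 75 UMIs, Gad1 had 0.531 (0.315 to 0.909), and Gabra3 1.18 (0.791 to 1.82). Slc6a9 had 1.17 (0.788 to 1.75) in Bergmann glia-like nuclei. Glra1 was at 0.679 (0.456 to 1.01) in GN-like nuclei. Slc12a2 departed most in GNP-like nuclei with 1.25 (0.927 to 1.66), and Slc12a5 in GN-like nuclei with 1.26 (1.08 to 1.46). Gphn departed most in microglia-like nuclei with 0.807 (0.624 to 1.05).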

How the data were processed

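Single-nucleus RNA-seq was performed on 1 control and 1 cKO library of P1 cerebellum. The deposited values are whole UMI counts per gene and barcode, made by the authors with Cell Ranger 7.0.1 on mm10 per the labels. The study's methods name SoupX and Scrublet for its own later steps, and free RNA was not subtracted here. The files held 4857 and 6946 barcodes with 22325208 and 33726533 UMIs, a median of 4072 and 4161.5 per barcode.

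Barcodes with over 25% mitochondrial UMIs (1 and 5) and those ranked highest by the Scrublet method of scanpy 1.11.5, 0.8% per 1000 barcodes, were removed (189 and 386), since its automatic threshold marked 1 and 350. Libraries were integrated and clustered with Seurat 5.3.0 in R 4.3.3 (3000 variable features, 20 dimensions, resolution 0.8), without the 28 genes. Clusters were named from listed markers by a rule set after the clusters were seen, so names were rebuilt and may differ from the study's. The levels of 1 of the 10 classes are not reported here. UMIs were summed per class and library and divided by the class total. Intervals were exact Poisson for a level, exact conditional binomial for a ratio and Clopper-Pearson for a share, from scipy 1.17.1 in Python 3.11.15. Gene positions came from the GENCODE annotation of GRCm38, matched by ID for 32235 of 32285 genes. The scripts were tested on simulated data. The members and lists were chosen with earlier results of these data known. All 28 genes are named. Partner genes past 1.5-fold are named up to 3 per direction. The rule for each gene was to give the leading class in control, the class with the ratio farthest from 1 and microglia-like nuclei. Leading classes are given for most genes and only among the reported classes, and many microglia-like levels only as a joint range. Genes, clusters and settings beyond this rule were chosen after values were seen.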

Additional observations from a re-analysis of the deposited data

Results flagged for a closer look

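For 2 receptor genes the ratio of the cKO-labelled library over control lay past 1.5-fold in opposite directions in different classes, with counting intervals that did not hold 1. The difference between the classes was not tested, since there was 1 library per group. Only the 28 genes were searched for this. It was not counted over all genes, so it is not read as a trait of these genes. Gabrb1 had a ratio of 1.80 (1.08 to 2.92) in GNP-like nuclei and 1.72 (1.58 to 1.87) in GN-like nuclei, and 0.612 (0.474 to 0.792) in Purkinje cell-like nuclei. The last value left the 1.5-fold range with no doublet removed (0.957), with the 28 genes kept in the clustering (0.706) and with a per-nucleus marker gate (0.730). Gabrg1 had a ratio of 1.91 (1.20 to 3.19) in parenchymal astrocyte-like nuclei, on 22 and 100 UMIs, and 0.573 (0.413 to 0.798) in Bergmann glia-like nuclei, on 72 and 82 UMIs. No values under other settings are given for Gabrg1 in these classes.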

How the results depend on the processing

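No paired analysis was possible because each group had 1 library and the labels carry no replicate numbers, and for the same reason no library could be left out. At a fold of 2, the calls were 2 of the 28 genes and 1 partner gene over whole libraries, 4 genes in the granule lineage, 2 in GN-like nuclei and 0 in Purkinje cell-like nuclei. With the low-depth clusters left out, a choice made after seeing the data, 2 partner genes were called. In the granule lineage 5 genes were called with at least 200 UMIs and 5 with nuclei thinned to 1000 UMIs, and Abat turned to a ratio of 0.990 when thinned. In Purkinje cell-like nuclei 4 genes were called with no minimum beyond 1 UMI in each library, Gabra2 and Gabrb1 lower and Gabra6 and Gabrr2 higher. There 1 was called in each of 5 other settings, and it was not the same gene: Gabrb1, lower, with at least 200 UMIs, Gabra2, lower, with a per-nucleus marker gate, Gad1, lower, when thinned, Gabra4, higher, with no doublet removed, and Gabrg3, higher, with the 28 genes kept in the clustering. In interneuron-like nuclei 1 was called with no minimum, Gabrr2, higher, and 1 when thinned, Slc12a2, lower. The gate, which placed 16.6% of nuclei near the next class, gave Slc12a5 shares of 20.6% in GNP-like nuclei of the cKO-labelled library, and 48.1% and 61.7% in CN-like nuclei of control and the cKO-labelled library, and a median log2 ratio of 0.27 at equal class mix. Medians ran from 0.36 to 0.46 over whole libraries, 0.23 to 0.54 in GN-like, -0.02 to 0.10 in Purkinje cell-like and -0.05 to 0.14 in interneuron-like nuclei, and 0.24 to 0.67 in the granule lineage. In GN-like nuclei the ratio ran from 1.61 to 1.84 for Gabrb1, 1.74 to 1.99 for Glra2 and 1.69 to 2.58 for Gabra4. Where no cause is given by the setting itself, the cause was not tested. Counting limits all values: genes with under 50 UMIs have no call, and intervals leave out the spread between animals.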
